A study of Mus musculus with 5 samples.

Results

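The SLC25 genes encode the carriers of the inner mitochondrial membrane. They were taken as every row of the deposited count table whose symbol is Slc25a followed by a number, which gave 35 of 10329 genes. A further 12 SLC25 symbols have values only in a deposited table of TPM. Ribosome-protected mRNA fragments (footprints) had been sequenced from brain slices incubated with homoharringtonine (HHT), a plant alkaloid that stops ribosomes soon after initiation while those already elongating run off the mRNA. The 5 groups were 0, 5, 10, 30 and 60 min on HHT, with 1 library each and no replicate at any time. All came from acute hippocampal-cortical slices, cut from males of the C57BL/6N strain with wild-type genotype at postnatal day 28 to 35. Slices were 400 µm thick, recovered for 3 to 4 h in artificial cerebrospinal fluid, and received 20 µM HHT in a protocol whose vehicle was 0.05% DMSO. Each pool held 10 slices from 2 to 3 mice. Footprints were made with RNases A and T1, taken from sucrose gradients and read as 75 bp. No vehicle library at 5 to 60 min was used here, so the effect of HHT and that of vehicle or of longer incubation cannot be told apart.

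Most SLC25 proteins share a fold of repeated membrane helices and exchange metabolites across the inner membrane. Together they let mitochondria export ATP and take in ADP, phosphate, amino acids, carboxylates, nucleotides and cofactors. They are made on cytosolic ribosomes and imported without a cleaved presequence in most cases. In brain they are best known for supplying ATP to neurons and for the malate-aspartate shuttle, which moves reducing equivalents into mitochondria. The family name covers some proteins elsewhere, since Slc25a17 is a carrier of peroxisomes and Slc25a46 lies in the outer mitochondrial membrane.

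Total counts were 7155147, 2787749, 2022152, 1504748 and 1346175 at 0, 5, 10, 30 and 60 min, and the carriers held 18055, 4359, 3162, 3222 and 2937 of them. Fewer than 10 counts were left for 9 carriers at 60 min, against 0 at 0 min, so counting error is widest at the late times. The brain origin was checked on markers: Syt1, Tubb3 and Rbfox3 of neurons and all 4 astrocyte markers were present, Snap25 was not in the count table, and none of 3 liver markers was. The summed signal at 60 min, against that at 0 min, was 4581 against 18695 for the neuronal markers, 1729 against 14178 for the astrocyte markers, 3944 against 53708 for the oligodendrocyte markers and 79.4 against 2403 for the microglial markers. The part of these cell types in the carriers' values was not tested. Footprint signal was lower at 5 than at 0 min for 99.7% of all genes. In footprints of slices on HHT, run-off of ribosomes, fewer cells of a type and less RNA per cell cannot be told apart.

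Levels were compared between genes by the deposited signal, which is the count per kilobase of counted coding sequence divided by a factor for the library. The counted part is the coding sequence less 600 nt, which leaves only 225 to 1434 nt of these short mRNAs. At 0 min the carriers spanned 823-fold, with Slc25a4 highest at 13252 and Slc25a13 lowest at 16.1, and 22 of 35 lay above the median gene (221). The order at the top was Slc25a4, Slc25a3 (7580), Slc25a5 (6438), Slc25a22 (2849), Slc25a12 (1850), Slc25a11 (1719), Slc25a46 (925) and Slc25a18 (917). Slc25a46 and Slc25a18 lie closer together than the counting error of 608 and 333 counts. Slc25a3, Slc25a4 and Slc25a5 alone, the phosphate carrier and a pair of ADP/ATP carriers, made up 63% of the summed carrier signal at 0 min. Their share was 54.9, 57.6, 60.8 and 60.6% at 5, 10, 30 and 60 min.

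**Figure D1:**
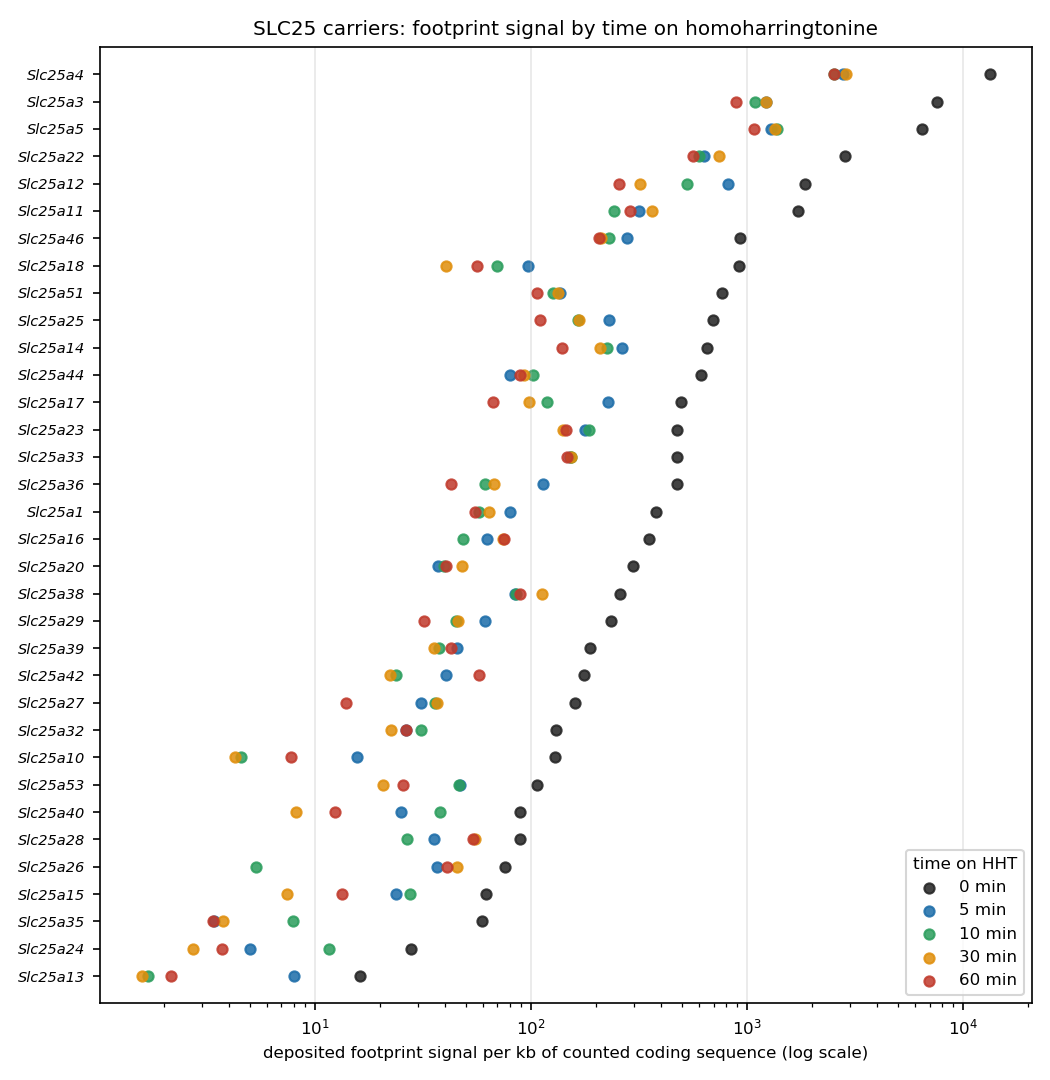
Deposited footprint signal (count per kilobase of counted coding sequence over the library factor, log axis) of 34 carriers, 1 point per library, ordered by the 0 min level. Slc25a4 stays highest in every library, and the 0 min point lies to the right of the 60 min point for all 34.

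The first question was how much of each carrier's footprint signal was left on HHT. Signal was lower at 5 than at 0 min for 35 of 35 carriers, as for 99.7% of all genes. The carriers kept a median of 0.241, 0.210, 0.193 and 0.166 of their 0 min signal after 5, 10, 30 and 60 min, where all genes kept 0.333, 0.268, 0.223 and 0.181. Most of the carriers' loss thus stood in the first 5 min. Afterwards signal was lower at 10 than at 5 min for 22 of 35 carriers (68.3% of all genes), lower at 30 than at 10 min for 19 (70.3%) and lower at 60 than at 30 min for 23 (80.2%). The median step of the carriers after 5 min was 0.896, 0.939 and 0.906 of the time before, against 0.849, 0.847 and 0.815 over all genes.

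**Figure D2:**
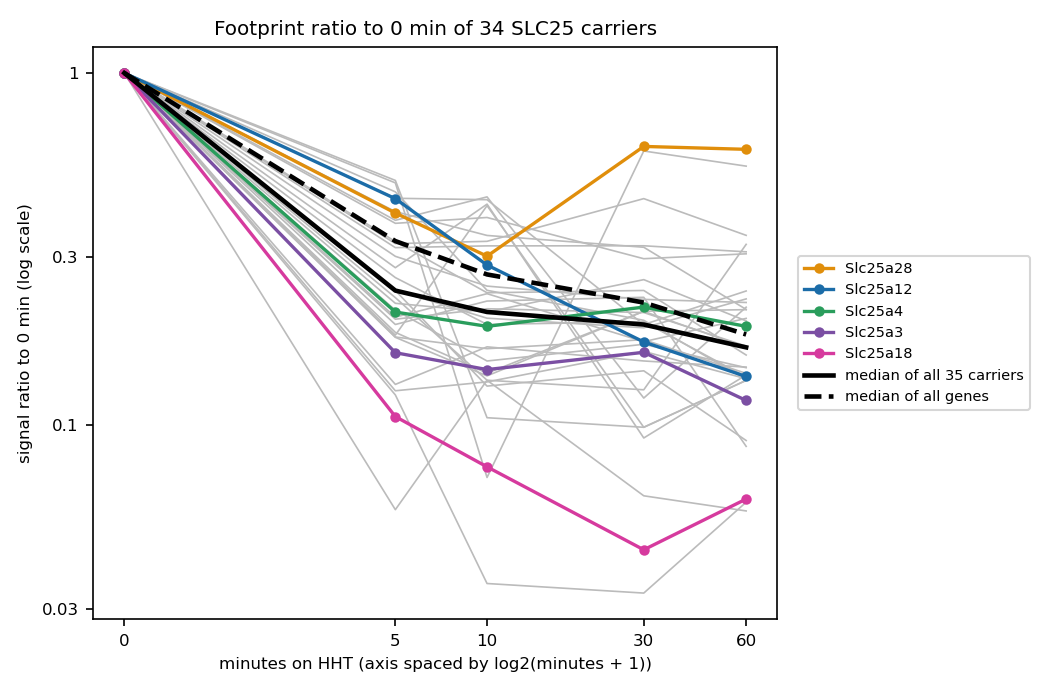
Signal ratio to 0 min (log axis) against minutes on HHT for each of 34 carriers (grey, 5 of them coloured), with the median of all 35 carriers (solid black) and of all genes (dashed). The carriers' median lies below that of all genes at every time, by most at 5 min (0.241 against 0.333). Slc25a18 runs under it throughout, and Slc25a28 ends above it, at 0.607.

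The loss was tested as a slope on log2(minutes + 1) over the 5 libraries, with edgeR's quasi-likelihood test, the deposited library factors and Benjamini-Hochberg adjustment over 9444 genes with a mean of at least 10 counts. Of the carriers, 29 passed that filter, and 27 of these fell while none rose. The share of all tested genes that fell was 94.2%, so the carriers' share is near the background. Slopes of the 27 ran between -0.23 (Slc25a38) and -0.75 (Slc25a18) per unit of log2(minutes + 1), with adjusted p between 0.000169 and 0.0328. The carriers' median slope was -0.42, against -0.41 over all genes. Slc25a28 (-0.11 ± 0.111 SE, edgeR adjusted p = 0.344) was among those that did not pass. The 6 carriers left untested for low counts were Slc25a10, Slc25a13, Slc25a15, Slc25a24, Slc25a26 and Slc25a35. Without the 0 min library, 5 of 26 carriers fell (Slc25a12, Slc25a14, Slc25a17, Slc25a25 and Slc25a36), where 47.7% of all genes did. Time in plain minutes gave 0 calls among the carriers in edgeR (9 at an unadjusted p under 0.05) and 0.254% of all genes, while DESeq2 on the log scale called 27 carriers and 92.1% of all genes.

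Among carriers of adenine nucleotides and phosphate, 9 of 11 listed were in the count table. All 8 that could be tested fell on this scale, as did 94.2% of all tested genes. Slc25a4 (chromosome 8, 46207168 to 46211062, GRCm38), which exchanges ADP for ATP and prevails in muscle and brain, had 3936, 796, 622, 751 and 731 counts at 0, 5, 10, 30 and 60 min. Its isoform Slc25a5 (chromosome X, 36795597 to 36798808), found in most tissues, had 1912, 369, 339, 352 and 312 counts. After 5 min both stayed nearly flat. Slc25a4 signal was 2.06 times that of Slc25a5 at 0 min, and 2.16, 1.83, 2.13 and 2.34 times at 5, 10, 30 and 60 min, with an interval of 2.05 to 2.68 at 60 min. All intervals given are exact 95% intervals from the counts and cover counting error only. The pair was thus lost in nearly equal proportion. The testis isoform Slc25a31 is listed at 0 in all 5 libraries of the deposited TPM table. The sources used here do not say how reads shared by these near-identical coding sequences were assigned, and Slc25a5 has annotated pseudogenes.

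Slc25a3 (chromosome 10, 91116574 to 91124046) brings in the phosphate for ATP synthesis. It had 3593, 557, 428, 510 and 411 counts, a signal ratio of 0.161 at 5 min and of 0.118 at 60 min (95% interval 0.106 to 0.130). Its loss was deeper than that of Slc25a4, whose ratio at 60 min was 0.191 (0.176 to 0.207), and the intervals do not overlap. Accordingly Slc25a4 signal was 2.84 times that of Slc25a3 at 60 min, against 1.75 times at 0 min.

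Slc25a23, Slc25a24 and Slc25a25 are carriers of ATP-Mg and phosphate that are regulated by calcium and set the adenine nucleotide pool of the matrix. Slc25a23 had 382, 138, 123, 100 and 114 counts and Slc25a25 had 630, 202, 124, 134 and 97. Slc25a24 had only 23, 4, 8, 2 and 3. Slc25a25 signal was at 0.753 of that of Slc25a23 at 60 min (0.568 to 0.995), against 1.46 times it at 0 min (1.28 to 1.66). In between it was 1.29, 0.892 and 1.19 times that of Slc25a23 at 5, 10 and 30 min, with intervals that include 1 at 10 and 30 min. Slc25a17, the peroxisomal carrier, kept more signal than most carriers at 5 min and had 160, 71, 32, 28 and 21 counts. Slc25a16 and Slc25a42, both linked to coenzyme A transport, had signal ratios at 60 min of 0.213 (0.138 to 0.319) and 0.326 (0.187 to 0.547). Slc25a42 rests on 7 to 20 counts on HHT, against 63 at 0 min.

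Among amino acid carriers, 8 of 9 listed were measured and all 6 tested fell (94.2% of all tested genes). The glutamate carriers Slc25a22 and Slc25a18, nearly equal in coding length (972 and 963 nt), parted from each other. Slc25a22 had 1060, 227, 184, 242 and 204 counts. Slc25a18 (chromosome 6, 120773504 to 120794169), enriched in astrocytes of mouse brain, had 333, 34, 21, 13 and 20 counts. Slc25a18 was low in all 4 libraries on HHT. Its signal was 0.322 of that of Slc25a22 at 0 min and 0.153, 0.117, 0.0551 and 0.10 at the later times, with intervals of 0.0601 to 0.159 at 60 min and 0.284 to 0.364 at 0 min. Its signal ratio at 60 min was 0.0617 (0.0372 to 0.0969), and its slope was the steepest of the tested carriers (-0.75 ± 0.106 SE, edgeR adjusted p = 0.000169).

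Beside Slc25a18, the 4 astrocyte markers Gfap, Aqp4, Aldh1l1 and Slc1a3 had a summed signal of 14178, 3796, 2945, 2143 and 1729 at the 5 times. Their median ratio at 60 min was 0.113, within 0.0961 (Aldh1l1) to 0.171 (Aqp4), and none was at 0. The part of astrocyte RNA in the value of Slc25a18 was not tested.

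Slc25a12 and Slc25a13 are the aspartate-glutamate exchangers of the malate-aspartate shuttle, the first prevailing in brain and the second in liver. Slc25a12 (chromosome 2, 71274270 to 71367781) had 2653, 1126, 626, 403 and 355 counts, and Slc25a13 had 23, 11, 2, 2 and 3. Signal of Slc25a12 was 118 times that of Slc25a13 at 60 min (40.0 to 574), against 115 times at 0 min (76.4 to 182). Slc25a12 has the longest coding sequence of the 35 (2034 nt), and its signal was lower at each time than at the time before. Its signal ratio was 0.440, 0.285, 0.172 and 0.137 at 5, 10, 30 and 60 min, with intervals of 0.410 to 0.472, 0.261 to 0.311, 0.155 to 0.191 and 0.123 to 0.154. In this it differed from Slc25a4, at 0.210, 0.191, 0.216 and 0.191. Slc25a11, the oxoglutarate-malate exchanger of the same shuttle, was nearer to Slc25a4 with 0.183, 0.141, 0.210 and 0.166.

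Of the other amino acid carriers, Slc25a44, which carries branched-chain amino acids, had 246, 31, 34, 33 and 35 counts, and its signal was at 0.131 to 0.167 of the 0 min value in every later library. Slc25a38, which brings in glycine for heme synthesis, had 98, 31, 27, 38 and 33 counts and stayed at 0.328 to 0.440. Slc25a29, for basic amino acids, had a ratio of 0.137 at 60 min (0.0631 to 0.266). The ornithine carrier Slc25a15 rests on 2 to 7 counts on HHT, against 19 at 0 min.

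Of the carriers of carboxylates and acylcarnitine, 4 were measured. The 3 that could be tested fell with the deposited factors (94.2% of all tested genes). Slc25a11 had 593, 105, 69, 110 and 96 counts, and its gene overlaps Rnf167. The citrate carrier Slc25a1 had 127, 26, 16, 19 and 18 counts, the carnitine-acylcarnitine carrier Slc25a20 had 91, 11, 10, 13 and 12, and the dicarboxylate carrier Slc25a10 had 34, 4, 1, 1 and 2. Signal ratios at 60 min were 0.166 for Slc25a11, 0.146 for Slc25a1, 0.135 for Slc25a20 and 0.0604 for Slc25a10 (0.00703 to 0.236). The interval was 0.133 to 0.207 for Slc25a11, 0.0836 to 0.240 for Slc25a1 and 0.0675 to 0.248 for Slc25a20. All 4 intervals overlap, so the order of the 4 is unsettled.

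In the uncoupling protein branch, Slc25a14 had 241, 94, 69, 68 and 50 counts and Slc25a27 had 59, 11, 11, 12 and 5. Both fell (94.2% of all tested genes), and both are known from neurons. Slc25a27 signal was 0.10 of that of Slc25a14 at 60 min (0.0311 to 0.249), against 0.245 at 0 min (0.181 to 0.327), with overlapping intervals. Slc25a30, the remaining listed member of this branch, is in the TPM table alone. Ucp1, Ucp2 and Ucp3 themselves fall outside the symbol rule, and Ucp2 had 24, 1, 0, 1 and 4 counts.

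Of the carriers of cofactors, glutathione and pyrimidine nucleotides, 8 of 8 listed were in the count table. The pyrimidine nucleotide carriers Slc25a33 and Slc25a36 had nearly the same signal at 0 min (474 and 473) and differed on HHT. Slc25a36 had 159, 37, 17, 20 and 14 counts and Slc25a33 had 172, 53, 46, 49 and 52. Slc25a36 signal was 0.291 of that of Slc25a33 at 60 min (0.149 to 0.533), against 0.999 at 0 min (0.800 to 1.25), and these intervals do not overlap. The NAD carrier Slc25a51 had 227, 39, 31, 35 and 31 counts. Slc25a39, which imports glutathione, had 90, 21, 15, 15 and 20 counts, and its relative Slc25a40 had 37, 10, 13, 3 and 5. The folate carrier Slc25a32 kept 0.201 of its signal at 60 min on 9 counts. Slc25a26, which carries S-adenosylmethionine, had 17, 8, 1, 9 and 9 counts, and its gene overlaps Lrig1.

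Slc25a28 (chromosome 19, 43663801 to 43675006), the mitoferrin of most non-erythroid tissues, imports iron for heme and iron-sulfur clusters. It had 44, 17, 11, 24 and 26 counts, so the counts at 30 and 60 min exceeded that at 10 min although both libraries were smaller. Its signal ratio was 0.400, 0.302, 0.619 and 0.607, and the interval at 60 min was 0.359 to 1.01. Its erythroid paralogue Slc25a37 is in the TPM table alone, at 2, 3, 5, 2 and 3 TPM.

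The outer membrane member Slc25a46, linked to mitochondrial fission and fusion, had 608, 177, 125, 122 and 132 counts, with a ratio at 60 min of 0.223 (0.183 to 0.270). It fell (-0.37 ± 0.0764 SE, edgeR adjusted p = 0.000674). Of Slc25a53 and Slc25a35, given no substrate here, Slc25a53 fell, with 47, 20, 17, 8 and 11 counts. Slc25a35 had 18, 1, 2, 1 and 1. Slc25a53 overlaps Zcchc18, Slc25a35 overlaps Rangrf and Slc25a25 overlaps Naif1 in the annotation, and whether counting used strand is not stated.

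The second question was how the carriers stood relative to other mRNAs. For this, counts were scaled by TMM, which sets the typical gene level, and the log2 fold against 0 min was taken with a prior count of 2. The carriers' median log2 fold was -0.45, -0.34, -0.20 and -0.14 at 5, 10, 30 and 60 min, where that of all genes was 0.0046, 0.0079, -0.020 and -0.016. Folds lay below 0 for 24, 24, 24 and 19 of 35 carriers, against 49.8, 49.7, 51.0 and 51.1% of all genes. By group, 5 of 9 adenine nucleotide and phosphate carriers, 5 of 8 amino acid carriers, 4 of 4 carboxylate carriers and 3 of 8 cofactor carriers lay below 0 at 60 min.

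Counting intervals were set against 0 for each carrier. At 5 min the interval lay wholly below 0 for 11 carriers (24.4% of all genes) and wholly above for 3 (29.7%). At 10 min these counts were 13 (22.0%) and 2 (28.7%), at 30 min 5 (20.0%) and 7 (21.0%), and at 60 min 4 (19.1%) and 8 (21.4%). The 4 below at 60 min were Slc25a18, Slc25a36, Slc25a3 and Slc25a12. The 8 above included Slc25a28, Slc25a26, Slc25a38, Slc25a42, Slc25a33, Slc25a23 and Slc25a46. Intervals cover counting error of single libraries only, with no stated molecular identifiers, and carry no test of time.

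Differences of at least 2-fold were counted among the 22 carriers for which the pair of libraries held at least 100 counts. At 5 min, 4 were at least 2-fold lower (5.77% of such genes) and none was 2-fold higher (6.11%). The 4 were Slc25a18 at -1.60, Slc25a44 at -1.30, Slc25a20 at -1.28 and Slc25a3 at -1.05 on the log2 scale. These shares were not matched for coding length. With the trend on coding length removed, as described below, the 4 stood at -0.93, -0.84, -0.64 and -0.56, none of them 2-fold lower. At the later times Slc25a18 alone was 2-fold lower, at -1.75, -2.26 and -1.53 (background 5.68, 4.42 and 5.08%). Those at least 2-fold higher numbered 1 at each of these times (13.1, 3.92 and 4.54%). Below that count minimum, Slc25a28 stood at 1.62 at 60 min (0.97 to 2.46) and Slc25a26 at 1.33 (0.22 to 2.82).

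**Figure D3:**
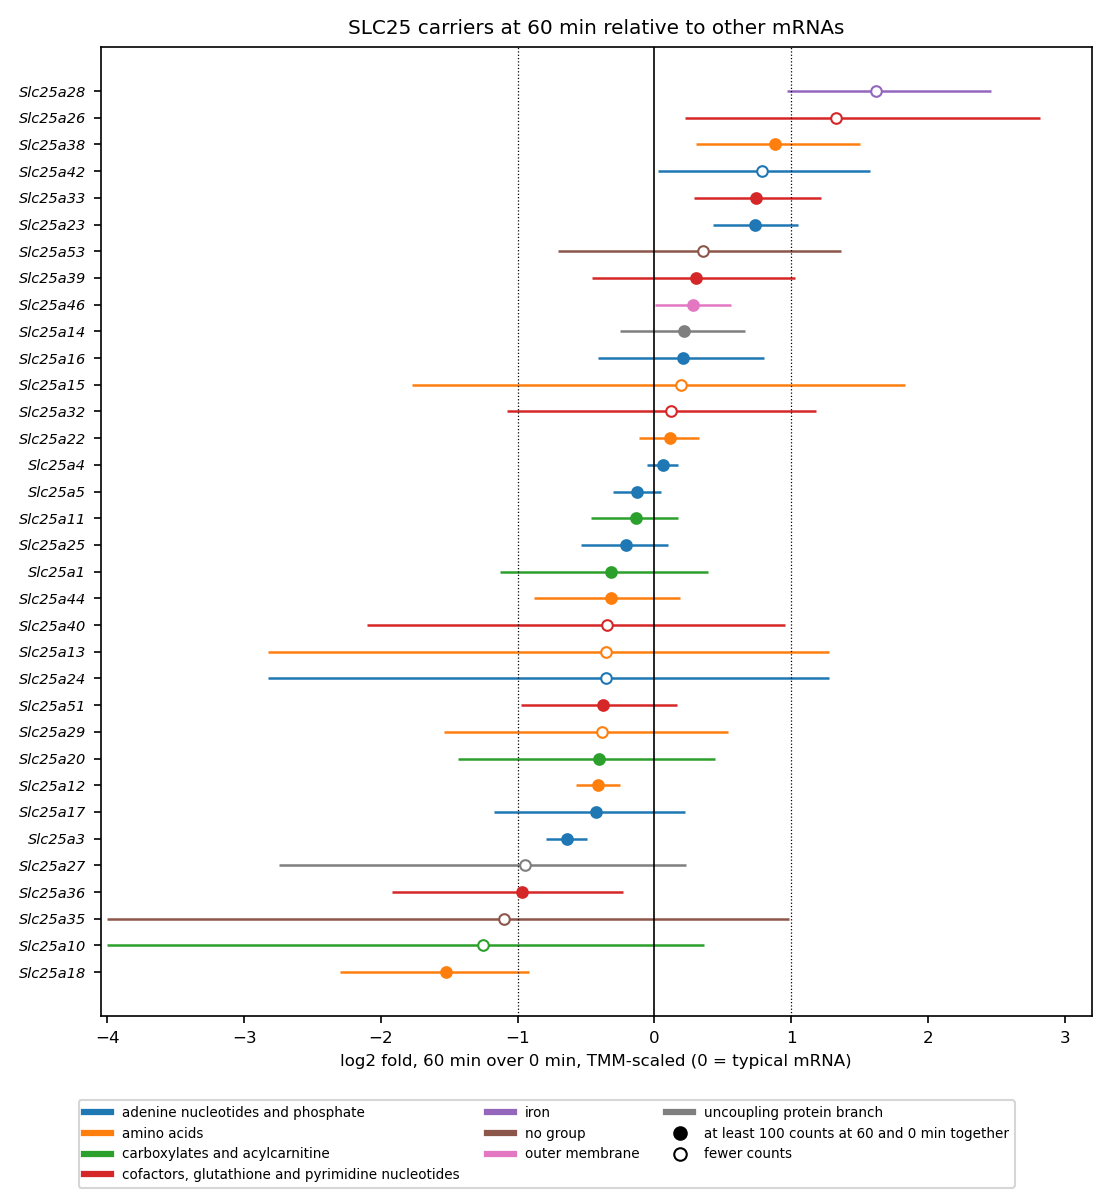
TMM-scaled log2 fold at 60 over 0 min of 34 carriers, coloured by substrate group, with 95% counting intervals (lower ends under -4 are cut at the axis) and dotted lines at 2-fold. Slc25a18 at the bottom and Slc25a28 and Slc25a26 at the top lie past the dotted lines, as do Slc25a10 and Slc25a35. Open circles mark carriers with under 100 counts.

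On the TMM-scaled slope, 0 of 29 carriers passed lower and 0 higher in edgeR (0.0106 and 0% of all tested genes). At an unadjusted p under 0.05, 2 lay lower, Slc25a18 (-0.34 ± 0.0846 SE) and Slc25a36 (-0.17 ± 0.0701 SE), and 2 higher, Slc25a28 (0.30 ± 0.0831 SE) and Slc25a38 (0.18 ± 0.0681 SE), where 5.48 and 6.75% of all genes did. The lowest edgeR adjusted p of a carrier was 0.162, for Slc25a18. DESeq2 likewise called none (1 lower and 2 higher unadjusted). Without the 0 min library, 3 of 26 carriers passed as higher, Slc25a28 (0.51), Slc25a16 (0.38) and Slc25a11 (0.28), and 0 as lower (2 unadjusted). Of all genes, 5.1% passed higher and 10.1% lower. Coding length was not matched in these shares.

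The carriers were set beside mRNAs of their own coding length, because short and long mRNAs lost signal at different speeds. Their median coding length was 963 nt, against 1626 nt over all genes, and 29 of 35 were under 1200 nt, as were 28.3% of all genes. Among 800 to 1200 nt, the median ratio of 29 carriers was 0.222, 0.193, 0.193 and 0.168 at 5, 10, 30 and 60 min. For all 2224 genes of that length it was 0.222, 0.211, 0.213 and 0.175. With the trend of log2 fold on coding length removed, the carriers' median log2 fold was 0.18, -0.05, -0.12 and -0.05, and 13, 19, 21 and 19 of 35 lay below 0, against 49.8, 49.8, 49.9 and 49.8% of all genes. At 5 min the carriers' median therefore changed sign with this step.

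Slc25a18 and Slc25a3 lay below 0 at all 4 times before and after this step. So did Slc25a44, Slc25a51 and Slc25a20, and, on few counts, Slc25a10 and Slc25a35. Slc25a28, Slc25a23 and Slc25a14 were among those above 0 at all 4 times in both. After removal of the length trend, Slc25a18 stood at -0.93, -1.42, -2.17 and -1.39, and Slc25a3 at -0.56, -0.54, -0.40 and -0.61. Slc25a28 stood at 1.38 at 30 min and 1.63 at 60 min. Slc25a12 was at 0.27 at 5 min and -0.36 at 60 min. Across the 35 carriers, the rank correlation of ratio with coding length was 0.30, 0.40, 0.094 and 0.13 at 5, 10, 30 and 60 min, and across all genes it was 0.70, 0.47, 0.13 and 0.073. These are descriptions, since the genes share 5 libraries.

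**Figure D4:**
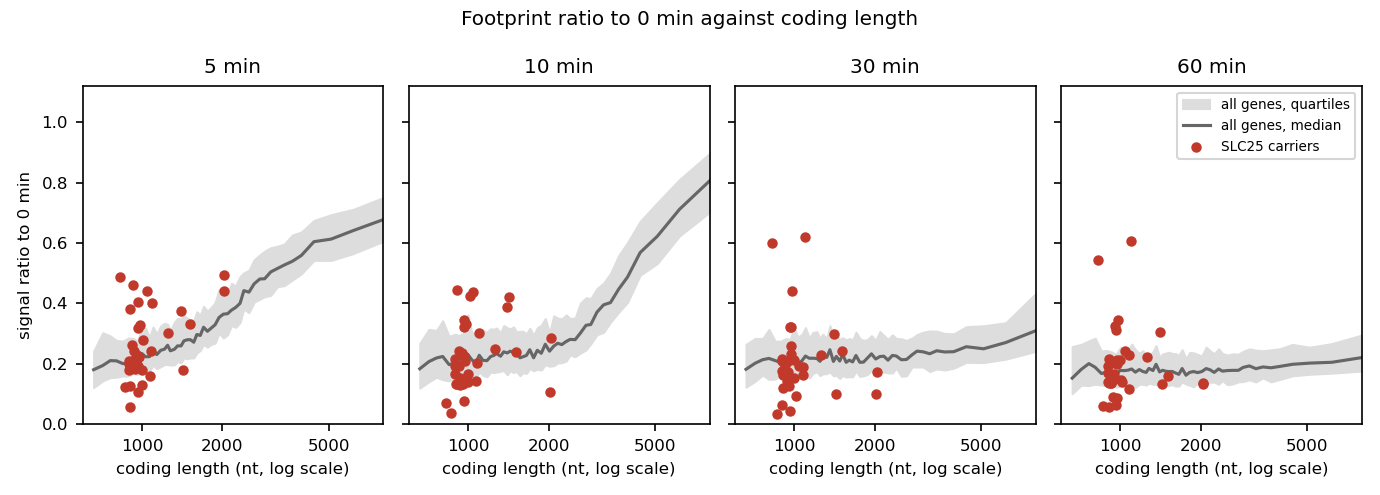
Signal ratio to 0 min against coding length (log axis) at 5, 10, 30 and 60 min, with 34 carriers as points over the median (line) and quartiles (band) of all genes in bins of length. Most carriers gather at the short end, around the line. Slc25a12 and Slc25a13 are the rightmost points.

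Other genes of mitochondrial transport were set beside the carriers. Of 27 listed channels and carriers outside the symbol rule, 21 were in the count table. Their median ratio was 0.221, 0.186, 0.193 and 0.171 at 5, 10, 30 and 60 min. The list is not wholly outside the family, since Ucp1, Ucp2, Ucp3, Mtch1 and Mtch2 are SLC25 proteins under other symbols. All 20 tested fell with the deposited factors, as did 94.2% of all tested genes. On the TMM-scaled slope 0 passed, where 0.0106% of all tested genes passed lower and 0% higher. The outer membrane channel Vdac1, with 3278, 616, 532, 635 and 558 counts, had nearly the same 0 min signal as Slc25a4 (13008 against 13252) and a ratio of 0.175 at 60 min. At 60 min the lowest of this list were Sfxn3 (0.112), a sideroflexin, and Mcu (0.113), the pore of the calcium uniporter, and the highest were the transporters Abcb10 (0.289) and Abcb6 (0.276). Of 14 listed genes for import of carriers, 3 were in the count table, and all 3 fell (94.2% of all tested genes). The receptor Tomm70a had a ratio of 0.172 at 60 min, the kinase Agk 0.223 and the channel Tomm40 0.345.

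The 194 genes of other SLC families, most of them carriers of the plasma membrane and of vesicles, have longer coding sequences (median 1641 nt). Their median ratio was 0.374, 0.308, 0.262 and 0.230, above that of the SLC25 carriers at each time. With the length trend removed, their median log2 fold at 60 min was 0.36, against -0.05 for the SLC25 carriers. No SLC25 gene and no gene of these families passed on the TMM-scaled slope, where 0.0106% of all tested genes passed lower and 0% higher. The difference between the families was not tested.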

How the data were processed

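Ribosome profiling libraries of 5 times on HHT were used, 1 per group, so time points carry no replicate. The submitters' processing notes name mm10 and, without their roles, SAMtools 0.0.19, TopHat2 2.0.9, Bowtie2 2.1.0, cutadapt 1.7.1 and Trimmomatic 0.32. Expected counts were deposited by the authors, whole as listed, for 10329 genes. The deposited signal equals the count per kilobase of coding sequence less 600 nt, over library factors of 1, 0.965, 0.828, 0.882 and 0.973, whose origin is not stated. Factors from mitochondrially encoded genes of the TPM table (0.991, 0.825, 0.871 and 0.972 after 0 min) lie near them, and every signal ratio rests on these factors. The deposited ratio columns equal signal at each time over signal at 0 min, the quotient used here. The deposited TPM score is rounded and was used for 12 carriers outside the count table and as an alternative. All 35 carriers matched the GRCm38.p6 annotation, the assembly behind mm10, with the same symbol.

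Slopes on log2(minutes + 1) were fitted over all genes with edgeR 4.0.16 (quasi-likelihood, 3 residual degrees of freedom) in R 4.3.3, with a mean of at least 10 counts and Benjamini-Hochberg adjusted p under 0.05. The code was run on simulated counts that follow a straight line on this scale, which does not show how well a line describes these data. The slope tests are set against spread around the line. In it, technical scatter, biological scatter and departure of the time course from a line are not separated. Intervals are exact 95% conditional binomial. Genes named were the 10 highest at 0 min, the 4 highest and 4 lowest folds at 5 and 60 min, carriers not called, paralogue pairs, and 2 highest and lowest of other lists; remaining carriers are given for completeness, and 1 is counted in the totals but not reported here by itself or plotted. The members, gene lists and tests were chosen with earlier results of these data known. Alternatives used DESeq2 1.42.0, limma 3.58.1, other scalings, filters and thresholds, and each library left out.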

Additional observations from a re-analysis of the deposited data

Results flagged for a closer look

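The TPM table lists 47 SLC25 symbols, of which 12 have no row in the count table. Of these 12, 6 were higher in at least 1 library on HHT than at 0 min. This sets the highest of several libraries against a single one. The share of other genes that would pass is not given, so the count is not a result about the carriers. The largest was Slc25a47, a carrier known from liver, at 50 TPM at 5 min and 17 TPM at 30 min, against 0 TPM at 0 min. It was also listed at 0 at 10 and 60 min, and the liver markers Alb and Cyp2e1 were at 0 TPM in every library. The remaining liver marker, Apoa1, was at 2 TPM at 5 min and 3 TPM at 60 min, and at 0 TPM in the other libraries. Slc25a37, the erythroid mitoferrin, had its highest value of 5 TPM at 10 min against 2 TPM at 0 min. The highest values of the other 4 were 3 TPM for Slc25a21 against 2 TPM at 0 min, 4 TPM for Slc25a30 against 3 TPM, 4 TPM for Slc25a45 against 1 TPM, and 1 TPM for Slc25a43 against 0 TPM. These values are rounded, rest on single libraries with no stated counts, and are relative to a total that is nearly equal in all libraries, so they cannot show a gain of footprints. Slc25a34 was at 0 to 3 TPM on HHT, against 6 TPM at 0 min. Slc25a2, Slc25a31, Slc25a41, Slc25a48 and Slc25a54 are listed at 0 in all 5 libraries, as is Snap25, an abundant neuronal mRNA, so a 0 in this table does not show absence.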

How the results depend on the processing

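No paired analysis was possible because each time point has 1 library. Depth limits single carriers most at 30 and 60 min, where 10 and 9 of 35 had fewer than 10 counts. Calls on the slope with deposited factors numbered 27 with DESeq2 (92.1% of all genes), 27 with mitochondrially encoded genes as the scale (93.8%), 32 of 35 with no filter (92.5%) and 0 with time in minutes (0.254%). With a library left out they numbered 5 to 28, the 5 without the 0 min library (47.7% of all genes, against 88.6 to 96.3% without another). Without the 10 min library Slc25a38 narrowly missed the call (edgeR adjusted p = 0.0534), though its slope hardly moved (-0.229, against -0.233 with all libraries). With a library left out, slopes on the deposited factors ran from -0.19 to 0.25 for Slc25a28, -0.67 to 0.16 for Slc25a42, -0.52 to 0.13 for Slc25a16, -0.27 to 0.063 for Slc25a38, -0.61 to 0.057 for Slc25a20, -0.50 to 0.026 for Slc25a11 and -0.59 to 0.023 for Slc25a44, each positive, with no call, without the 0 min library. On the TMM-scaled slope 3 carriers were higher without the 0 min library (5.1% of all genes) and 0 with any other left out (0 to 0.0209%). The cause was not tested, and these shares were not matched for coding length. The median log2 fold at 5, 10, 30 and 60 min was 0.18, -0.046, -0.12 and -0.049 with the length trend removed, and -0.32, -0.57, -0.30 and -0.42 from TPM. Over carriers with at least 100 counts it was -0.51 and -0.11 at 5 and 30 min, with a median ratio of 0.231 and 0.210. The TPM folds are relative to a library total rather than to the typical gene. Their median over all genes is not given, so they do not show how far the carriers stood below other mRNAs. A 1.5-fold threshold gave 10, 9, 2 and 3 lower and 1, 1, 2 and 4 higher carriers. No count minimum gave 3, 4 and 3 lower at 10, 30 and 60 min and 3 higher at both 30 and 60 min. The share over all genes is not given beside these last counts, and coding length was not removed. They therefore show how the settings move the counts and are not a result about the carriers.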
